A study of Mus musculus with 4 samples.

Results

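The Gimap genes are a family of 8 mouse genes, Gimap1, Gimap3, Gimap4, Gimap5, Gimap6, Gimap7, Gimap8 and Gimap9, that stand next to each other on chromosome 6. They were examined here for open chromatin, as the peaks of 4 ATAC-seq libraries in the stretch from 20 kb before the first of the genes (Gimap8) to 20 kb beyond the last (Gimap3), chr6:48627234-48790851 on mm10. Peaks of the 4 lists that shared at least 1 base were merged, which gave 39 regions in this window of 93679 in the genome, and 8 genes of 21842 protein-coding genes. The members were fixed by name and position and not by a measured value, though with earlier results of these data known.

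ATAC-seq marks open chromatin with a transposase that cuts DNA where it is free of nucleosomes. The cells were naive CD4+ T cells, gated as CD62LhighCD44lowCD25-, from spleens of male C57BL/6 mice, 7 weeks old by the labels, with no engineered allele in either group. All cells received plate-bound anti-CD3 (5 µg/ml), soluble anti-CD28 (1 µg/ml), human TGF-β1 (5 ng/ml) and mouse IL-2 (10 ng/ml) for 48 h, a culture that yields induced regulatory T cells (iTreg). The iTreg group gave 2 libraries, and the iTreg+IL-4 group, which in addition received mouse IL-4 at 15 ng/ml, gave 2. The study describes its ATAC-seq samples as pooled, so a library may stand for several mice, and p-values measure only the spread between these libraries.

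The Gimap proteins are GTPases of lymphocytes, and most of them are known for roles in the survival and upkeep of T cells. Gimap5 is the member best known from mutant mice and rats, in which its loss depletes peripheral T cells. Gimap1 is needed by mature lymphocytes, Gimap3 and Gimap5 are close relatives anchored in membranes, and Gimap4 has been tied to the timing of T cell death. Some members have been reported to bind proteins of the Bcl2 family, the regulators of apoptosis. IL-4 signals in T cells mainly through the transcription factor STAT6, which binds sites with TTC and GAA arms, while IL-2 signals through STAT5, which prefers a spacer shorter by a single base.

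Sequences of some of the regions described below are printed from the mm10 genome, each as the 200 bases around the centre of a region on the forward strand. The first pair, region 8 (chr6:48669654-48669853, between Gimap8 and Gimap9) and region 31 (chr6:48741166-48741365, in an intron of Gimap1), ranked higher with IL-4 and hold TTC and GAA arms with 4 free bases between them, shown in capitals. Region 31 also holds the RUNX core TGTGGT, in capitals further along. Region 11 at Gimap9, not printed, holds such arms with 4 free bases as well, and its groups overlapped. The next pair, region 12 (chr6:48680169-48680368) and region 24 (chr6:48711546-48711745), ranked higher with IL-4 as well and held none of the motifs searched. Both libraries with IL-4 ranked above both without it in 20.7% of the window's regions called in all 4 libraries, beside 19.8% in the genome. Region 29 (chr6:48732982-48733181) was the strongest of the window in every library, and its capitals mark a RUNX core and a forkhead-type GTAAACA, both on the reverse strand.
region 8: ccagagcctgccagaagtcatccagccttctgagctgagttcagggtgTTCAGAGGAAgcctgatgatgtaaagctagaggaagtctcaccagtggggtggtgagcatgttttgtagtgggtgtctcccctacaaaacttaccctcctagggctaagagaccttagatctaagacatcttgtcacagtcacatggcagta
region 31: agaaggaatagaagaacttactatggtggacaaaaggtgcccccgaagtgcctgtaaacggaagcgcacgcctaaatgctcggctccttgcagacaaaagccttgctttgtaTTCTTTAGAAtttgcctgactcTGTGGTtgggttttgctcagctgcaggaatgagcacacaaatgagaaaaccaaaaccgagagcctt
region 12: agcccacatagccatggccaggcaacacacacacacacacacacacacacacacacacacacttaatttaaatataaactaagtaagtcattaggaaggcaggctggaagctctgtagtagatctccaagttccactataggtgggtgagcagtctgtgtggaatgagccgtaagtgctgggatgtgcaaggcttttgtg
region 24: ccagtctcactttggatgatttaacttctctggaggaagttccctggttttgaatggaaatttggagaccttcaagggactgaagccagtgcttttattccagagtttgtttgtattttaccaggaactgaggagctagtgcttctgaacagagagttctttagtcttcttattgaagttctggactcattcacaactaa
region 29: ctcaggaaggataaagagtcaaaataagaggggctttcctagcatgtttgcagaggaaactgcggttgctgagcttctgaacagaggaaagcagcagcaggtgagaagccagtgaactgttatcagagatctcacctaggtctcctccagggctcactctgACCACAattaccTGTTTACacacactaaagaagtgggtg

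A pair of promoters is printed from the RefSeq promoter table (GRCm38.p6) as the 250 bases before the start on the forward strand. The promoter of Gimap7 (chr6:48718371-48718620) is shown because it ranked highest of the 8 in each library, with a RUNX core (reverse strand) in capitals. That of Gimap5 (chr6:48745947-48746196) is shown for the best known member, with an ETS-type ACAGGAAGT in capitals.
Gimap7 promoter: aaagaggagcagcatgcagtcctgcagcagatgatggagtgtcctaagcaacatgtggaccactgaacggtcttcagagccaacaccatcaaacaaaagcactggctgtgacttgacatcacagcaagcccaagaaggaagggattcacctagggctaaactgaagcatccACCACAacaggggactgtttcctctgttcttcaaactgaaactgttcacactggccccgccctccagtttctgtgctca
Gimap5 promoter: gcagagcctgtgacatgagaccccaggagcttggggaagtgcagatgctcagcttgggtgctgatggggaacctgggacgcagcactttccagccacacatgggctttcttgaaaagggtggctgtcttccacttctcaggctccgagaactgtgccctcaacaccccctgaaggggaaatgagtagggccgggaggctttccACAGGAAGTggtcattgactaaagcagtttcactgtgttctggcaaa

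The lists held 56645 to 78670 peaks per library and neither reads nor totals, so sequencing depth could not be judged, and where no peak was listed the signal had not passed the caller's threshold. Each peak carries 2 unlabelled values, taken from their range to be −log10 of the q-value and the unscaled height of the pileup. Levels are therefore given as a rank percentile, the percent of peaks in the same list with a lower −log10 q, and a difference between groups is in percentage points of rank. The list of iTreg replicate 2 was the shortest, and shared regions stood lower in it on the whole: the median rank of the 47767 regions called in all 4 libraries was 68.74 and 57.45 in iTreg replicates 1 and 2, and 69.31 and 64.47 in iTreg+IL-4 replicates 1 and 2. With 2 libraries against 2, an exact two-sided permutation test cannot give a p below 0.33. In bulk cells, more cells with a region open and a region more open in each cell cannot be told apart.

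The labelled cell type was checked by promoter peaks of marker genes. All 11 T cell markers, Cd3e, Cd4, Cd5 and Tcf7 among them, had one in every library. Of the CD8 pair, Cd8b1 had one in all 4 libraries and Cd8a in 2. Of the B cell markers Pax5 and Ebf1 had one in all 4, Ms4a1 in 3, Cd79b in 1 and Cd79a in none. Among 6 myeloid markers Csf1r, Lyz2 and Adgre1 had none, Itgam was called in 3 libraries and Cd14 and Cebpa in all 4. Of 3 NK cell markers Ncr1 had none, Klrb1c was called in 1 library and Klrd1 in 2. Of 4 erythroid markers, Gata1 and Klf1 were called in all 4, Hba-a1 in 1 and Hbb-bs in none. A promoter peak need not mean that a gene is expressed, and the part of other cells in the results below was not tested.

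The cluster was open in every library. The window held 38 and 36 peaks in iTreg replicates 1 and 2, and 35 in each iTreg+IL-4 library. Without IL-4 the mean was 37 ± 1.41 peaks and with it 35 ± 0 (SD, n = 2 each), a difference of −2 peaks with groups that did not overlap. Such counts also depend on how peaks are split. The stretch chr6:48645369-48647491 was a single peak in iTreg+IL-4 replicate 1 and held separate peaks in the other libraries. In the whole lists the means were 66854 and 73206 peaks. The window thus held 0.0493% and 0.0636% of all peaks in iTreg replicates 1 and 2, and 0.0445% and 0.0517% in iTreg+IL-4 replicates 1 and 2, with groups that overlapped. The 2 iTreg libraries had 23896 and 20202 bases of the window inside peaks, and the 2 iTreg+IL-4 libraries 23455 and 22267. In bases the groups overlapped, with means of 22049 ± 2612 and 22861 ± 840 (SD, n = 2 each).

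Of the 39 regions, 29 (74.4%) were called in all 4 libraries, beside 51% of all regions in the genome. Every one of the 9 regions that touched a promoter of a Gimap gene was among them, and 20 lay away from those promoters. No Gimap region had a peak in both libraries with IL-4 and in none without it, a pattern that 2.6% of all regions showed. None had the opposite pattern either, beside 0.699% of all regions.

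**Figure D1:**
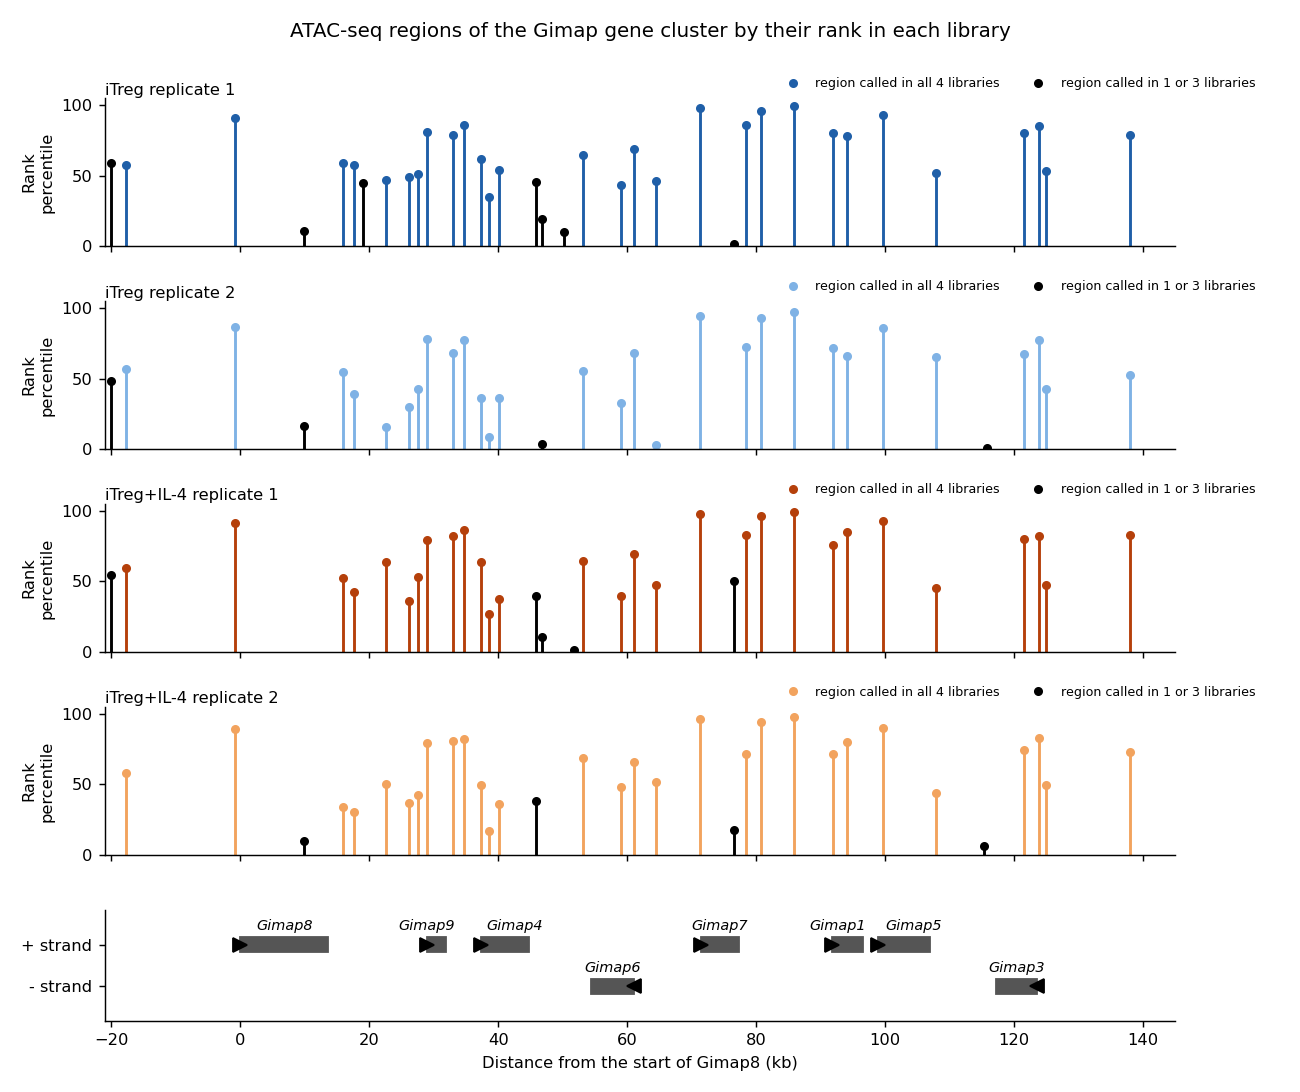
ATAC-seq regions along the Gimap cluster: each stem is a region at its distance from the start of Gimap8 (x axis, kb), its height the rank percentile in the library named (y axis, percent of peaks in that list with a lower −log10 q), with coloured stems for the 29 regions called in all 4 libraries and black stems for the 10 others. The lowest panel shows the 8 genes with arrowheads at their starts; the tallest stem in each library is region 29 between Gimap7 and Gimap1.

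The window was dense in such regions. Merged regions filled 16.69% of its 163618 bases, at 23.84 per 100 kb. Cut into consecutive stretches of the window's length, the genome gave 16649, of which 2 held 29 or more regions called in all 4 libraries, with a median of 1 and a highest count of 47. Around protein-coding genes the background was higher: among stretches of this length centred on each of 21930 coding gene records outside the family (unlike the 21842 above, these count repeated symbols and genes with no transcript annotated as coding), which overlap each other, the median was 6 and 10 held 29 or more. These counts are a description, since the window is bounded by its genes and the stretches are not.

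All 8 Gimap genes had a promoter peak, within 1 kb of a start of a protein-coding transcript, in all 4 libraries, as did 58.7% of protein-coding genes. No Gimap promoter ranked higher in both iTreg+IL-4 libraries than in both iTreg libraries, beside 19.9% of the coding promoters called in all 4, and none ranked lower in both, beside 5.68%. The 8 promoters were not uniformly strong. Their median rank percentile was 83.14 and 77.74 in iTreg replicates 1 and 2, and 81.2 and 81.11 in iTreg+IL-4 replicates 1 and 2, below the 90.28, 88.05, 90.23 and 89.82 of all coding promoters called in all 4 in the same libraries.

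Gimap7, a GTPase without a membrane anchor, had the strongest promoter (region 25, chr6:48718194-48718966). Its rank percentile was 98.03 and 94.54 in iTreg replicates 1 and 2, and 98.06 and 96.82 in iTreg+IL-4 replicates 1 and 2, at −log10 q of 606.1, 212.5, 516.2 and 411.9. It stood above the 7 other members in every library, and the groups overlapped. The difference of 1.16 points (96.28 ± 2.47 against 97.44 ± 0.876, SD, n = 2 each) was smaller than the SD of the iTreg libraries and larger than that of the iTreg+IL-4 libraries. The exact two-sided permutation test gave p = 0.667. The same peak covers the start of Gm28053, a coding gene annotated from chr6:48718607-48752644 across Gimap7, Gimap1 and Gimap5, so the promoters of Gimap7 and Gm28053 share a single value.

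Gimap5 and Gimap8 came next. The Gimap5 promoter (region 32, chr6:48745805-48748103) ranked at 93.17 and 85.91 without IL-4 and at 93.28 and 90.04 with it. Gimap8, the largest protein of the family, had its strongest promoter peak (in region 3, chr6:48645369-48647506) at 90.68 and 86.93 without IL-4 and at 91.57 and 89.55 with it. Region 3 was a single peak in iTreg+IL-4 replicate 1 and joined separate peaks in the other libraries. In iTreg replicate 1 the strongest was chr6:48646866-48647506, and a weaker one (chr6:48645400-48646571) ranked at 59. Gimap5 ranked above Gimap8 in 3 libraries and below it in iTreg replicate 2, so their order was not fixed. The differences were 2.12 points for Gimap5 and 1.75 points for Gimap8, with groups that overlapped (exact two-sided permutation test, p = 0.667 each). For Gimap8 they did not overlap with lists of equal length (0.77 points, exact permutation p = 0.333) or by rank among shared regions (0.9 points, exact permutation p = 0.333).

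Gimap3, Gimap9 and Gimap1 formed the middle of the family. Gimap3, the close relative of Gimap5 on the opposite strand, had its promoter peak (region 37, chr6:48770563-48771514) at 85.25 and 77.52 without IL-4 and at 82.62 and 82.78 with it. Gimap9 (region 11, chr6:48675752-48676700) ranked at 81.03 and 77.96 without and at 79.77 and 79.44 with IL-4, the smallest difference of the 8, 0.11 points (exact two-sided permutation test, p = 1). Gimap3 and Gimap9 also changed places in iTreg replicate 2, and their groups overlapped.

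The Gimap1 promoter (region 30, chr6:48738877-48739379) ranked at 80.64 and 71.45 without IL-4 and at 76.13 and 71.3 with it, below Gimap9 in every library. Its difference of −2.33 points (76.04 ± 6.5 against 73.72 ± 3.41, SD, n = 2 each) was smaller than the SD of either group. The exact two-sided permutation test gave p = 0.667. If the promoter is taken as 2 kb either side, region 31 in the intron of Gimap1 counts as well, and the difference became 6.9 points. The direction given for Gimap1 therefore turns on the width of the promoter. Ranked among the regions called in all 4 libraries alone, region 30 stood lower in both iTreg+IL-4 libraries, at 60.82 and 59.44 against 68.82 and 66.27. The same held for Gimap1 with lists of equal length, by −6.29 points (exact permutation p = 0.333).

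Gimap6 and Gimap4 had the lowest ranks. Gimap6, linked to autophagy in T cells, had its promoter peak (region 23, chr6:48707837-48708671) at 68.82 and 67.85 without IL-4 and at 69.66 and 65.97 with it, a difference of −0.52 points (exact two-sided permutation test, p = 1). Gimap4 (region 14, chr6:48684403-48684686) ranked at 61.52 and 35.9 without and at 63.95 and 49.81 with IL-4, last of the 8 in every library. Replicate 1 of each group was high and replicate 2 low, and the groups overlapped. Its difference of 8.17 points was well within the SD of 18.1 among iTreg libraries (exact two-sided permutation test, p = 0.667).

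By height the order at the bottom was the reverse. The Gimap4 peak had heights of 198, 65, 202 and 134 in iTreg replicates 1 and 2 and iTreg+IL-4 replicates 1 and 2, and a percentile by height of 82.58, 71.81, 83.96 and 79.63. Gimap6, at heights of 128, 63, 125 and 99 in the same order, had height percentiles of 74.15, 71.08, 74.9 and 73.49 and was the lowest of the 8 in each library. The medians of the 8 members by height were 88.52, 83.18, 87.39 and 87.19, nearer to the 89.69, 87.63, 89.68 and 89.35 of all coding promoters called in all 4.

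**Figure D2:**
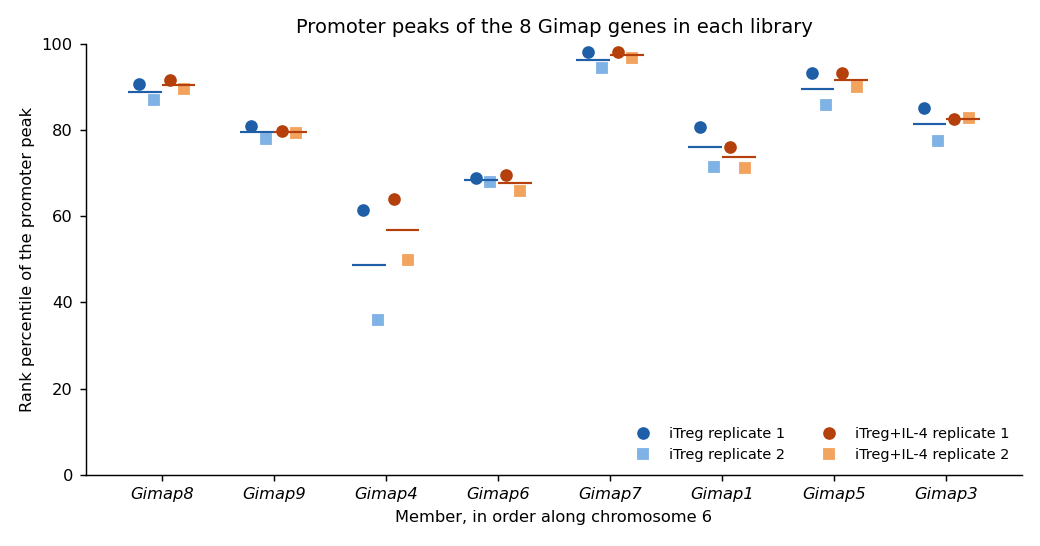
Rank percentile of the promoter peak (y axis) for the 8 Gimap genes in their order along the chromosome (x axis), with a point per library and lines at the group means (n = 2). Gimap7 lies between 94.54 and 98.06 in the 4 libraries and Gimap4 between 35.9 and 63.95, and the groups overlap for every gene.

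That gap between height and −log10 q ran through the cluster. In iTreg replicate 1, 34 of 38 window peaks (89.5%) had a higher percentile by height than by −log10 q, and in iTreg replicate 2, 28 of 36 (77.8%). In iTreg+IL-4 replicates 1 and 2 the counts were 31 of 35 (88.6%) and 29 of 35 (82.9%). In the whole lists 31.71% to 32.29% of peaks did so, and the median gap in the window was 7.33 to 9.65 points, so Gimap peaks stood lower by significance than by height in both groups. Differences by rank of height are given below beside those by rank of −log10 q for the 6 regions that separated the groups in each ranking.

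**Figure D3:**
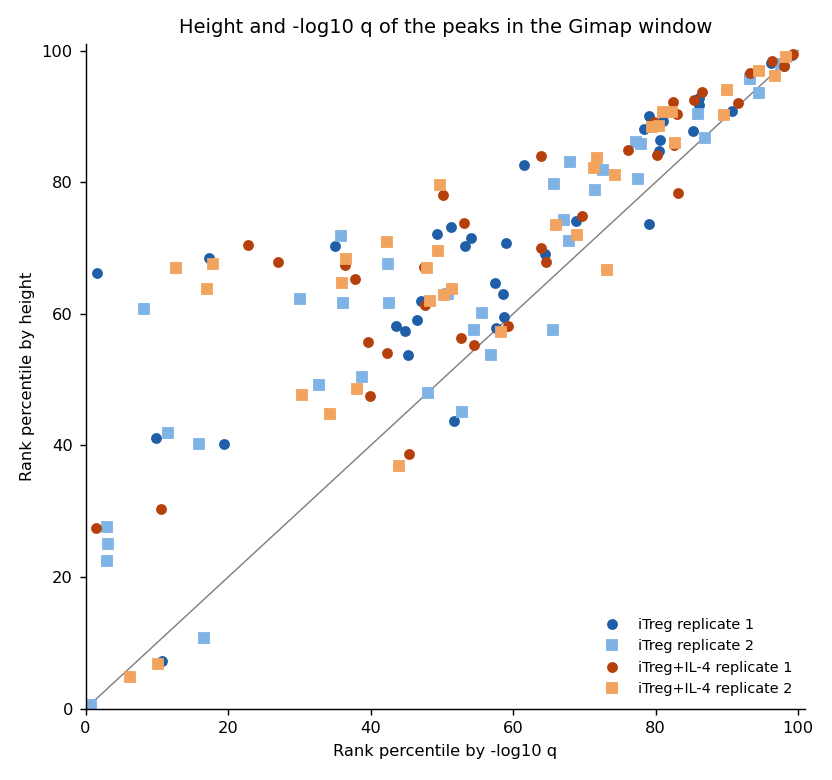
Percentile by height (y axis) against percentile by −log10 q (x axis) for each peak of the Gimap window, with a symbol per library and a line where the 2 are equal. Most points lie above the line, 34 of 38, 28 of 36, 31 of 35 and 29 of 35 in the 4 libraries.

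The strongest region of the cluster was not a promoter of a Gimap gene. Region 29 (chr6:48732660-48733505), 5972 bases upstream of the Gimap1 start and in an intron of Gm28053, ranked at 99.17 and 97.53 without IL-4 and at 99.24 and 98.26 with it. Its −log10 q was 767.6, 294.6, 655.6 and 504.9 and its height 930, 362, 838 and 664. The groups overlapped, with a difference of 0.4 points (exact two-sided permutation test, p = 0.667). Region 28 (chr6:48727493-48728309), between Gimap7 and region 29, ranked at 96.23 and 93.22 without and at 96.35 and 94.47 with IL-4. It stood below the Gimap7 promoter in every library by rank of −log10 q and above it by height.

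Across the 29 regions called in all 4 libraries, mean rank was higher with IL-4 in 21 (72.4%), beside 73.3% of all such regions in the genome, and the median difference was 1.16 points beside 2.05. Ranked only among the regions that all libraries share, which takes out the lengths of the lists, 15 were higher (51.7%, beside 49.7%) and 14 lower. By rank of height 25 were higher (86.2%, beside 76.6%) and 4 lower. Both iTreg+IL-4 libraries ranked above both iTreg libraries in 6 regions (20.7%), beside 19.8% of all regions called in all 4. They ranked below both in 2 (6.9%), beside 5.18%. By height the counts were 4 and 2, beside 20.5% and 4.13%, and by rank among shared regions 5 and 6, beside 14.4% and 12.7%. In all 3 rankings 4 regions (13.8%) were higher, beside 8.92%, and 2 (6.9%) lower, beside 2.66%. These shares rest on few regions, and the 3 rankings are not independent, since 2 of them use the same −log10 q.

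Region 8 (chr6:48669560-48669948) lies between Gimap8 and Gimap9, 6375 bases upstream of the Gimap9 start. It ranked at 47.09 and 15.88 in iTreg replicates 1 and 2, and at 63.89 and 50.34 in iTreg+IL-4 replicates 1 and 2. The groups did not overlap, and the difference was 25.63 points (exact two-sided permutation test, p = 0.333, the smallest possible). By rank of height it was 15.41 points (61.89 and 40.22 without IL-4, 69.99 and 62.94 with it). Without iTreg replicate 2 the difference by −log10 q was 10.02 points. Among the upper 50% of each list, region 8 had a peak in both libraries with IL-4 and in none without it.

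Region 24 (chr6:48711001-48712291) lies between the starts of Gimap6 and Gimap7, which face away from each other. It ranked at 46.52 and 3.03 without IL-4 and at 47.71 and 51.45 with it. The difference of 24.81 points (exact two-sided permutation test, p = 0.333) rested on iTreg replicate 2 and was 3.06 points without that library. By rank of height it was 19.21 points.

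Region 31 (chr6:48740774-48741759) lies 2190 bases downstream of the Gimap1 start, in an intron of Gimap1 and an exon of Gimap1os, a noncoding transcript on the other strand. It ranked at 78.44 and 65.79 without IL-4 and at 85.41 and 80.47 with it, at heights of 281, 94, 360 and 238. Both iTreg+IL-4 libraries stood above both iTreg libraries, by 10.83 points (exact two-sided permutation test, p = 0.333) and by 4.5 points without iTreg replicate 2. By rank of height the difference was 6.71 points (88.03 and 79.69 without IL-4, 92.56 and 88.58 with it). At the neighbouring Gimap1 promoter the difference was −2.33 points, with overlapping groups. Whether these regions differed from each other in their response was not tested.

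Region 12 (chr6:48679722-48680816) lies between Gimap9 and Gimap4, 2758 bases downstream of the Gimap9 start. It ranked at 79.02 and 67.96 without IL-4 and at 82.45 and 81.09 with it, a difference of 8.28 points (exact two-sided permutation test, p = 0.333) that was 2.75 points without iTreg replicate 2. By rank of height it was 4.91 points (90.03 and 83.07 without IL-4, 92.19 and 90.74 with it). These 4 regions were higher in each ranking. Region 21 (64.48 and 55.57 without IL-4, 64.57 and 68.98 with it) and region 2 (57.56 and 56.87 without, 59.32 and 58.34 with) were higher by −log10 q alone, and region 2 lies in AI854703, a neighbour gene outside the family.

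Both regions that ranked lower with IL-4 in each ranking lay outside the genes of the family. Region 5 (chr6:48662925-48663424), between Gimap8 and Gimap9, ranked at 58.65 and 54.48 without IL-4 and at 52.74 and 34.3 with it, a difference of −13.04 points (exact two-sided permutation test, p = 0.333) that was −3.83 points without iTreg+IL-4 replicate 2. Region 33 (chr6:48754670-48755558), just beyond Gimap5 in an intron of the noncoding Gm44226, ranked at 51.78 and 65.55 without and at 45.46 and 43.97 with IL-4, a difference of −13.95 points (exact two-sided permutation test, p = 0.333). Region 33 was highest in iTreg replicate 2, and without that library the difference was −7.07 points. By rank of height the differences were −9.66 points for region 5 and −12.8 points for region 33.

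**Figure D4:**
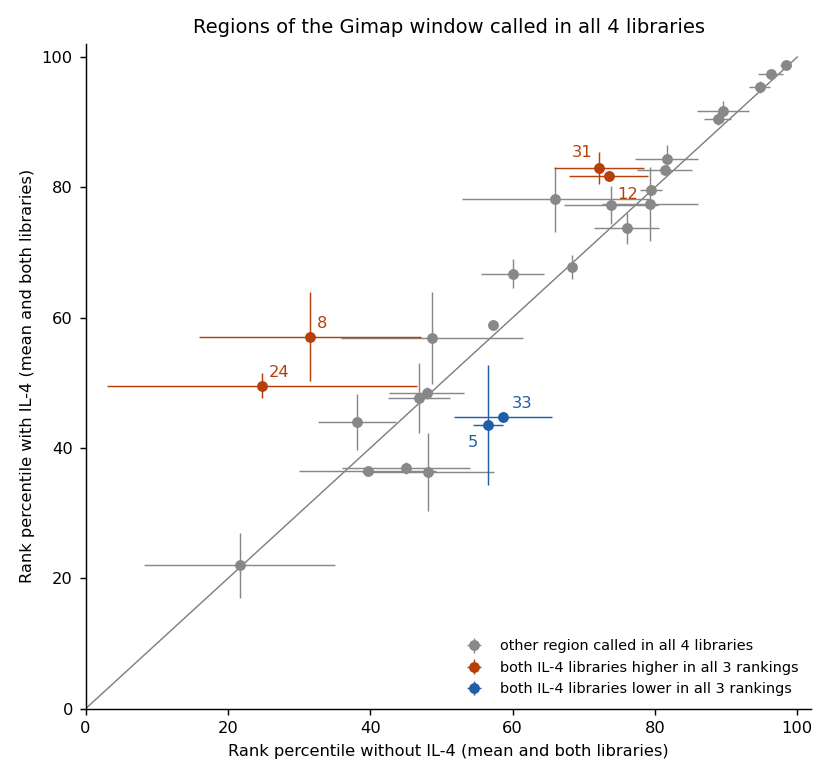
Mean rank percentile with IL-4 (y axis) against that without (x axis) for the 29 regions called in all 4 libraries, with bars that span both libraries of each group (n = 2) and the line of equal rank. Regions 8, 12, 24 and 31 (orange) lie above the line and regions 5 and 33 (blue) below it in all 3 rankings, and the wide bars of regions 8 and 24 show how far iTreg replicates 1 and 2 stood apart.

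Regions 5, 8, 12 and 24 lie between genes of the cluster and not at their promoters, and the 5 largest rank differences with non-overlapping groups were at regions 8, 24, 33, 5 and 31. Among the other regions called in all 4, region 39, 14341 bases upstream of the Gimap3 start, differed by 12.21 points with groups that overlapped (79.13 and 52.83 without IL-4, 83.2 and 73.17 with it). Region 6, between Gimap8 and Gimap9, differed by −11.76 points, also with overlap (57.41 and 38.83 without, 42.34 and 30.38 with IL-4). Region 16 in an intron of Gimap4 ranked at 54.08 and 36.07 without and at 37.86 and 36.03 with IL-4. Ranked among shared regions, regions 6, 9, 16 and 30 also stood lower in both iTreg+IL-4 libraries, and region 3, the Gimap8 promoter, higher, at 86.12 and 85.19 against 84.97 and 84.53.

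The other regions called in all 4 were less far apart. Region 27 in an intron of Gm28053 beyond Gimap7 ranked at 86.07, 72.55, 83.05 and 71.84 in iTreg replicates 1 and 2 and iTreg+IL-4 replicates 1 and 2, and region 13 upstream of Gimap4 at 86.1, 77.26, 86.54 and 82.3. Region 36, at a UTR of Gimap3, ranked at 80.49, 67.19, 80.15 and 74.35. In the Gimap4 intron, region 15 (also within 1 kb of a start) stood lowest of the regions called in all 4 in iTreg replicate 1 and both iTreg+IL-4 libraries, at 35.06, 8.23, 26.98 and 17.04. Regions 9, 10, 22 and 38 fell between 30.03 and 53.21.

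Of the 10 regions not called in every library, 5 were called in 3 and 5 in 1. Region 26 (chr6:48723600-48723974), in the coding exon of Gimap7, was missing from iTreg replicate 2. It ranked at 1.57 in iTreg replicate 1 and at 50.13 and 17.84 in iTreg+IL-4 replicates 1 and 2, with heights of 91, 146 and 78. With lists of equal length it became the only region of the window with a peak in both libraries with IL-4 and in none without it. Region 17, downstream of Gimap4, was missing from iTreg replicate 2 as well, and ranked at 45.26, 39.95 and 38.12 in the others.

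Regions 1 and 18 were missing from iTreg+IL-4 replicate 2 and region 4 from iTreg+IL-4 replicate 1. Region 1, which straddles the edge of the window in AI854703, ranked at 58.66, 48.07 and 54.57 where it was called, region 4 in an intron of Gimap8 at 10.68, 16.63 and 10.12, and region 18 at 19.44, 3.16 and 10.61. Those called in 1 library were mostly weak. Regions 7 and 19 were called in iTreg replicate 1 alone, at 44.78 and 9.89, and region 35 in iTreg replicate 2 alone, at 0.82. Regions 20 and 34 were called in iTreg+IL-4 replicates 1 and 2 alone, at 1.42 and 6.27. No region was called in exactly 2 libraries, beside 13.7% of regions in the genome.

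The share of each gene covered by regions ran from 4.9% of Gimap8 to 28.2% of Gimap4. Between them stood Gimap7 (12%), Gimap6 (15.6%), Gimap3 (17.1%), Gimap9 (19.2%), Gimap5 (23.8%) and Gimap1 (27.7%). Gimap4 thus had the weakest promoter by rank and the largest covered share.

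The other genes annotated in the window were AI854703, the pseudogene Gm44262, Gm28053, Gimap1os and the noncoding Gm44226 and 4833403J16Rik. The promoter of AI854703 was called in 3 libraries and those of the other 5 in all 4. The promoter value of Gimap1os is that of region 31, and that of Gm44226 and 4833403J16Rik is that of region 33. Gm44262 took the values of region 6.

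The median GC content of the Gimap regions was 49.2%, as was that of all regions. The RUNX core TGTGGT stood on either strand in the central 200 bases of 9 of 39 regions (23.1%, beside 21.4% of all regions). The STAT6-type spacing of 4 was in 3 (7.69%, beside 5.84%), namely regions 8, 11 and 31, and the STAT5-type TTCNNNGAA in 3 (beside 8.48%), regions 13, 25 and 28. ETS-type ACAGGAAGT was in regions 7 and 11 (beside 1.8%), where in region 7 it overlaps a RUNX core. Forkhead-type GTAAACA was in regions 29 and 37 (beside 2.51%), and the TCF/LEF-type CCTTTGAT in region 28 (beside 0.923%). AP-1-type TGACTCA was in region 3 alone (beside 10.3%), and the CTCF-type CNAGGGGGC in none (beside 1.98%). In the libraries where region 3 joined separate peaks, its AP-1-type letters lay outside the strongest of them.

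Across the genome, the STAT6-type spacing stood in 512 of 4255 regions (12%) that ranked higher with IL-4 in all 3 rankings, in 35 of 1266 (2.76%) of those lower and in 1965 of 42189 (4.66%) of the rest. Regions are not replicates, and these shares are a description. In the Gimap cluster 2 of the 4 higher regions held it, regions 8 (chr6:48669702-48669711) and 31 (chr6:48741278-48741287). It was in 0 of 2 lower regions, and in 1 of the 23 others, region 11 at Gimap9. Such letters are a description and not a bound site.

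The 8 genes matched 9 RefSeq promoters of 300 bases (250 before the start and 50 after it; GRCm38.p6), Gimap8 with a pair. They were poor in CpG, with a median of 4 CpG (2 to 8) beside 7 in all 32851 promoters of the table and an observed-to-expected CpG ratio of 0.178 beside 0.384. TTCNNNGAA stood on either strand in 4 of 9 (Gimap3, Gimap6, Gimap7 and Gimap8; 8.3% of all promoters), and TGTGGT in 3 (Gimap1, Gimap4 and Gimap7; 16.8%). ACAGGAAGT stood in 2, Gimap5 and Gimap9 (1.03%), and GTAAACA in Gimap3 (3.65%). The STAT6-type spacing was in none of the 9, beside 6.95% of all promoters, and CCTTTGAT (1.07%), TGACTCA (5.2%) and CNAGGGGGC (2.75%) were in none either.

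Members of a gene family can share sequence, and reads from near-identical copies may be dropped or placed at either copy. Within the window, 5.43% of bases lay in copies of at least 100 bases at 80% identity or more, and 2.07% in copies at 95% or more. The longest joined the end of Gimap5 (chr6:48752576-48753295) to Gimap3 (chr6:48765209-48765928), 720 bases inverted at 97.9% identity, and held no region of either. Region 33 alone lay in a near-identical copy, a 563-base tandem repeat at 100% identity (chr6:48754554-48755116 and chr6:48755116-48755678), and the part of this repeat in its values was not tested. Regions 10, 27 and 29 held 36.6%, 9.95% and 22.5% of copied bases at 80% identity. No promoter region held any.

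Of 18 genes of the Bcl2 family, 17 had a promoter peak in all 4 libraries and Hrk had none. Both iTreg+IL-4 libraries ranked above both iTreg libraries in 5 of the 17 (29.4%), Bak1, Bid, Bik, Pmaip1 and Bcl2l11, beside 19.9% of coding promoters, and below both in 0, beside 5.68%. The median difference over the 17 was 1.28 points, beside 0.66 over all coding promoters called in all 4. In the other 12, proapoptotic Bad, Bok, Bmf and Bbc3 included, the groups overlapped. Bcl2l11, which encodes Bim, ranked at 85.34 and 84.12 without IL-4 and at 87.96 and 90.66 with it, a difference of 4.58 points (exact two-sided permutation test, p = 0.333). The antiapoptotic Bcl2 ranked at 87.84 and 88.6 without and at 87.92 and 87.79 with IL-4, and Bcl2l1 at 98.09 and 97.75 without and at 97.62 and 97.93 with it. Their groups overlapped, as did those of Mcl1 (92.45 and 87.86, 91.98 and 90.58) and of the proapoptotic Bax (91.22 and 90.84, 90.4 and 91.48).

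The coding genes outside the window whose 4 promoter ranks lay nearest to the medians of the Gimap promoters were Tmem29, Sema6b, 1700008O03Rik, Zfp781 and Rnf128. Their Euclidean distances were 0.919 to 1.35 points over the 4 libraries, among 12819 candidates of which 20 lay within 2 points.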

How the data were processed

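The authors sequenced the ATAC-seq libraries on a BGISEQ-500, aligned reads to mm10 and called peaks per library, without pooling. The submitters' processing notes name Bowtie2 2.2.5, MACS2 2.1.2 and bedtools 2.16.2. The peak caller's parameters, removal of duplicate or mitochondrial reads and a correction for the transposase offset are not given in the sources used here, and their effect on positions and ranks was not tested. The deposited lists have 5 columns and no header. The 4th was read as −log10 of the q-value (the lowest, 1.31, lies just above the 1.301 of q = 0.05) and the 5th as the height of the signal the authors' caller gave, unscaled. No read totals were given, so depth and precision per peak are unknown and no interval was computed.

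Positions, read as counting from 0, are given from 1. Gene starts came from GENCODE vM21, promoters from RefSeq (GRCm38.p6) and sequences from GRCm38. Scripts ran on pysam 0.24.0, blastn 2.17.0, scipy 1.17.1, pandas 2.3.3, numpy 2.4.6 and Python 3.11.15. Counting was tested on simulated lists. Groups were compared by the exact two-sided permutation test for single regions. Totals over the window were not tested.

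The text names all 8 members, every annotated gene and region of the window, fixed values of the Bcl2 family, cell type markers (1 of the list fixed for them is left out here), and the 5 genes nearest in rank. The members and lists were chosen with earlier results of these data known. Alternatives changed the length of the lists, overlap, window, promoter width, start sites, ranking and libraries. Only the peak lists were used, and the study's other experiments were not analysed here.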

Additional observations from a re-analysis of the deposited data

How the results depend on the processing

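Depth is unknown and each group had 2 libraries, so single ranks carry no error beyond the spread between libraries. Of 165 values under alternatives, 128 kept their direction (ranks), stayed within 1 pooled SD (1 peak, 1940 bases) or stayed within 1.5 times (counts). The 165 and the 128 include the values under a replicate block (described last), which cannot change by construction. The difference in bases, 812, stayed within that SD yet changed sign, to −1026 in the upper 50% of each list and −1035 without iTreg replicate 2. The difference in peaks of the window was −3 with lists of equal length. In the upper 50% of each list 17 regions were called in all 4 libraries, region 8 (1 region) with IL-4 only and region 33 (1 region) without IL-4 only, and Gimap4 had no promoter peak left in replicate 2 of either group. With lists of equal length 1 region, region 26, was called with IL-4 only. Ranked among shared regions, 6 regions were lower with IL-4 without overlap, an alternative chosen after seeing the data, as were those by height and without a library for these counts.

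Of 95 values for the Gimap promoters, 77 kept their direction and 18 reversed. The 77 include a value for each gene under the replicate block, which keeps its direction by construction. Gimap1 became 6.9 points with 2 kb promoters and with the starts of all transcripts, and 0.89 by height. Gimap6 became 1.58 by height. With lists of equal length Gimap3 became −1.09 and Gimap9 −2.42, and ranked among shared regions −1.3 and −2.86.

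Leaving out 1 library at a time, the difference in peaks ran from −3 to −1, that in bases from −1035 to 2659, regions called throughout from 29 to 32, those with IL-4 only from 0 to 2 and without IL-4 only from 1 to 2, and members with a promoter peak stayed at 8. Regions higher with IL-4 without overlap ran from 7 to 21 (21 without iTreg replicate 1, 16 without iTreg+IL-4 replicate 2) and lower ones from 2 to 13 (13 without iTreg replicate 2, 10 without iTreg+IL-4 replicate 1); fewer libraries overlap less by construction. Rank differences ran from −6.92 to 2.27 for Gimap1, −2.55 to 5.19 for Gimap3, −4.64 to 20.98 for Gimap4, −1.5 to 5.75 for Gimap5, −2.36 to 1.33 for Gimap6, −0.59 to 2.9 for Gimap7, −0.12 to 3.62 for Gimap8 and −1.43 to 1.65 for Gimap9. Without iTreg replicate 2 all 8 were negative.

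A replicate block leaves mean differences as they are by construction (−2 peaks, 812 bases), so it changed no value. Libraries of the same number deviated together in rank (r = 0.451 over 47767 regions), but no source ties a number to a day or animal, and 2 numbers cannot show a pairing.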
